A study of Mus musculus with 69 samples.

Results

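The genes of cholesterol and fatty acid synthesis were followed across the RNA-seq libraries of T cells with reduced STAT5 dosage. A fixed list of 32 gene symbols was looked up among the 24309 symbols of the count tables, and every one was present. The list was divided by role into 4 regulators of the pathway, 7 genes of the mevalonate segment, 11 genes of the sterol segment, 3 genes of fatty acid synthesis and 7 genes of desaturation and elongation. One of them, Hmgcs1, which makes the precursor of mevalonate, was listed at 0 in all 67 libraries and says nothing about expression. Fads2, a fatty acid desaturase, had at most 22 counts in any library and never passed the filter on low counts of the main test. Of the other members, Tm7sf2 could be tested in 14 of 17 model fits, Scd1 in 16 of 17 and the remaining 28 in all 17.

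Cells make cholesterol from acetyl-CoA through mevalonate, isoprenoid units, squalene and lanosterol, and make fatty acids from acetyl-CoA through malonyl-CoA. Both routes are driven by the SREBP transcription factors, encoded by Srebf2, which acts mainly on sterol genes, and Srebf1, which acts mainly on fatty acid genes. INSIG1 retains SREBPs in the endoplasmic reticulum when sterols are plentiful, and Insig1 is itself an SREBP target. Lymphocytes that grow and divide raise this program to build membranes. STAT5A and STAT5B are paralogous transcription factors that transmit signals of IL-7 and IL-15, cytokines that maintain naive and memory CD8+ T cells.

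The libraries came from C57BL/6 mice of 3 genotypes. WT mice carried all alleles (Stat5a+/+ Stat5b+/+), AAB mice kept a single allele of Stat5b (Stat5a-/- Stat5b+/-) and BBA mice kept a single allele of Stat5a (Stat5a+/- Stat5b-/-). The deletions were germline and so present in every cell of the animal. CD8+ T cells were sorted from pooled lymph nodes and spleen as Tnv (naive, CD44 low CD62L high), Tcm (central memory, CD44 high CD62L high) and Tem (effector memory, CD44 high CD62L low), with 2 libraries per genotype and condition. Tnv and Tcm were profiled in the resting condition, after IL-7 and after IL-15, and Tem in the resting condition and after IL-15. Naive CD4+ T cells were examined without cytokine (3 WT, 2 AAB and 2 BBA libraries) and with IL-7 (3 WT, 2 AAB and 3 BBA). A further 2 libraries against 2 were labelled as AAB CD8+ T cells that had been activated in vitro and transduced with a retrovirus carrying CA-STAT5A, a constitutively active STAT5A, or an empty control vector. By the labels, cytokine treatment lasted 12 to 16 hours, and the study's methods give a longer upper limit. According to the labels the resting cells had been cultured, whereas the study's methods describe them as taken directly ex vivo, so an effect of the cytokine and an effect of culture cannot be told apart.

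Promoter sequences of 5 members are shown because the results turn on these genes: Idi1, Cyp51 and Fasn were among the members that differed most between genotypes in Tcm with IL-15, Hsd17b7 also differed there, and Insig1 and Hsd17b7 hold the E-box described next. Each sequence runs 5′ to 3′ on the strand of the gene, from 250 bases before to 50 bases after the RefSeq start site (GRCm38.p6). The windows are chr13:8885356-8885655 (plus strand) for Idi1, chr5:4104648-4104947 (minus) for Cyp51, chr1:169969156-169969455 (minus) for Hsd17b7, chr5:28071162-28071461 (plus) for Insig1 and chr11:120824498-120824797 (minus) for Fasn. Capitals mark CCAAT boxes (CCAAT, or ATTGG on the other strand) and the E-box CACGTG.
Idi1: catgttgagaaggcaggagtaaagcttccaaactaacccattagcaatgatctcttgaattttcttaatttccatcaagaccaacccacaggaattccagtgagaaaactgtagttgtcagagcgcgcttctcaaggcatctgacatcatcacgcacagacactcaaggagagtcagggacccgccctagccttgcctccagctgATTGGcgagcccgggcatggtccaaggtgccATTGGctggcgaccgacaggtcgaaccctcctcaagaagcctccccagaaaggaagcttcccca
Cyp51: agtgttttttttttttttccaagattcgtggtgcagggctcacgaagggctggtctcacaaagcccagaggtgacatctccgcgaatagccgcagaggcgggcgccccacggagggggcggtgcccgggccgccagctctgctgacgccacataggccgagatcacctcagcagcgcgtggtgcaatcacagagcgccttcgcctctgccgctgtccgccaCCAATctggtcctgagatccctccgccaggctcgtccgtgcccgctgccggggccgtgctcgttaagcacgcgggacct
Hsd17b7: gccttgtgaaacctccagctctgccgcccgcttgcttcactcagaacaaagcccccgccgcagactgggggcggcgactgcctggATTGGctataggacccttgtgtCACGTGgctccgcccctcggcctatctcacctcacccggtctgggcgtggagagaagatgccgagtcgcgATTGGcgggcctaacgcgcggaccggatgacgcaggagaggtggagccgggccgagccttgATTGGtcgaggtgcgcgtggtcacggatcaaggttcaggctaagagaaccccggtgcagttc
Insig1: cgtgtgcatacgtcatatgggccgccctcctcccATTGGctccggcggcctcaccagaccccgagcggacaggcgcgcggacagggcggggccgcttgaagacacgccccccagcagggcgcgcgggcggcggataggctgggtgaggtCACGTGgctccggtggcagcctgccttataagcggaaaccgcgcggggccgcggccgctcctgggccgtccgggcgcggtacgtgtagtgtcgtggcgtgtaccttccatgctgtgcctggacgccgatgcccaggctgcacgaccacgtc
Fasn: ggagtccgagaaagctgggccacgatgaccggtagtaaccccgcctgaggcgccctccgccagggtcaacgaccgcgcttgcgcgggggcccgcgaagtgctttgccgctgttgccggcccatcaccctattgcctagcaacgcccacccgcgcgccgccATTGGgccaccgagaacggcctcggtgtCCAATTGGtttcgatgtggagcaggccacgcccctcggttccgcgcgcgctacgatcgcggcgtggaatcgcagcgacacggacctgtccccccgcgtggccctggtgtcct

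Promoter windows were found for 25 of the 32 members. A CCAAT box, the motif of the factor NF-Y that acts beside SREBPs at many sterol genes, was present in 21 of 25, against 41.1% of 27025 genes with a window. Idi1 held 2 of them, at 45 and 14 bases before the start site, and Hsd17b7 and Fasn held 3 each, of which a pair in Fasn overlap. Of the members lower in BBA than in WT in Tcm with IL-15, 11 had a window and 9 of these held a CCAAT box. The E-box CACGTG, a form that bHLH factors such as SREBPs and MYC can bind, was present in Insig1, Hsd17b7, Sc5d, Dhcr7 and Elovl5 (5 of 25, against 8.09%). The sterol response element-like string TCACNCCAC (either strand) was present only in Hmgcs1 (1 of 25, against 1.44%). The STAT-type string TTCNNNGAA was present only in Ebp (1 of 25, against 9.55%). These are matches of letters within a short window, not binding sites, and motifs outside it were not searched.

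Levels are given as CPM, the usual depth-scaled count, taken here over the library's TMM-normalized total, and the mean level of the pathway is the mean of log2(CPM + 1) over the 32 members. The tables held 5926140 to 25612800 counts per CD8+ library, 6705000 to 34118300 per CD4+ library and 11021000 to 16516500 per retrovirus library, and the members took 0.149% to 0.283% of the CD8+ counts. Stat5a fell from a mean of 100.4 CPM in WT Tnv without cytokine to 2.27 in AAB, and Stat5b from 261 to 124 in AAB and 81.1 in BBA. Stat5b reads were thus reduced but not lost in BBA. The CD8+ libraries held Cd8a at 694 to 2009 CPM, and WT Tnv with IL-15 replicate 2 had 236 CPM of Cd4 against 6.50 in replicate 1. All 4 retrovirus libraries held little of Cd8a and Cd3e, markers of their label. Cd8a was at 1.40 to 3.16 CPM and Cd3e at 2.79 to 14.8 there, whereas Ncr1 and Eomes, from the list of NK-cell markers, were at 1124 to 1452 and 723 to 815. Of the lists, 5 of 5 T-cell markers and 4 of 6 NK-cell markers passed the filter on low counts in these libraries. The libraries are therefore called by their labels only.

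Without cytokine the mean level of the pathway lay between 4.58 and 4.94 in every library, and its highest values were those of WT Tcm with IL-15. In Tcm the WT mean level was 4.74 ± 0.060 (SD, n = 2) without cytokine and 5.43 ± 0.021 with IL-15. In AAB it was 4.67 ± 0.013 and 5.20 ± 0.056. In BBA it was 4.74 ± 0.014 and 4.77 ± 0.030. The WT, AAB and BBA libraries with IL-15 did not overlap, and both BBA libraries lay within 0.1 of those without cytokine. With IL-15 the Tnv levels were 4.99 and 5.02 in WT, 4.70 and 4.86 in AAB and 4.67 and 4.86 in BBA. The Tem levels with IL-15 were 4.93 ± 0.028 in WT, 4.84 ± 0.042 in AAB and 4.61 ± 0.094 in BBA. In CD4+ Tnv, IL-7 took WT from 4.69 ± 0.11 (n = 3) to 5.16 ± 0.082 (n = 3).

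**Figure D1:**
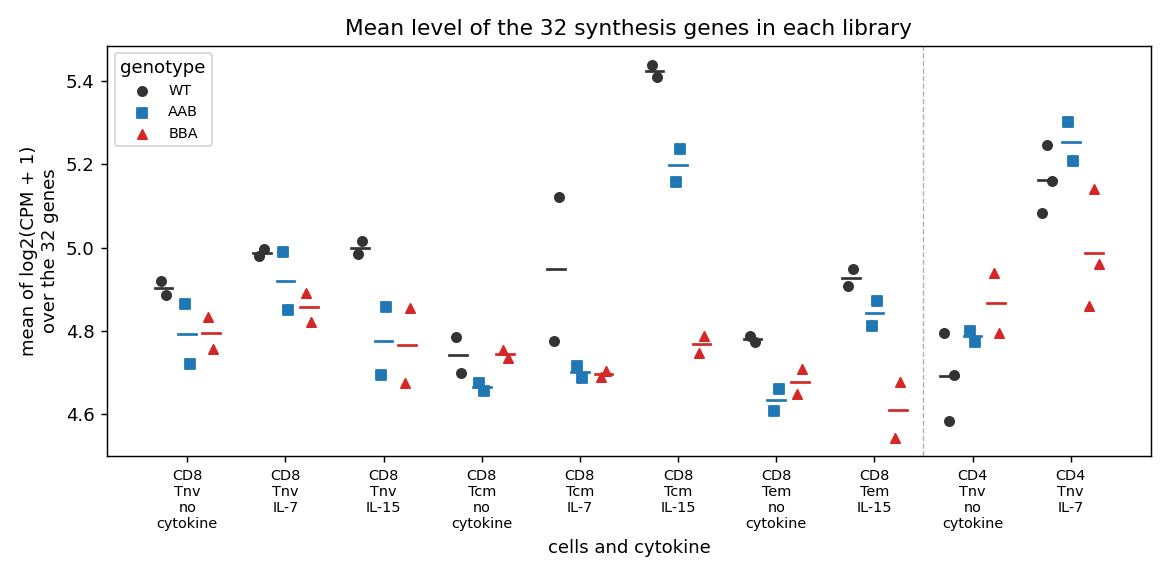
Mean log2(CPM + 1) over the 32 genes (vertical axis) in every library, by cell state, cytokine and genotype (WT, AAB, BBA), in CD8+ and CD4+ cells; each point is 1 library and each horizontal bar the mean of a group. The WT and AAB Tcm libraries with IL-15 stand above all other Tcm libraries, and the BBA Tcm libraries with IL-15 lie at the level of Tcm without cytokine.

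Per kilobase of exon, the most abundant members in WT Tcm with IL-15 were Acly, which makes cytosolic acetyl-CoA (75.9 ± 2.2 CPM per kb, SD, n = 2), Elovl5, a fatty acid elongase (67.1 ± 1.3), Srebf2 (55.6 ± 4.6) and Fasn, the fatty acid synthase (49.2 ± 2.7). Of the tested mevalonate and sterol genes Mvd, the mevalonate diphosphate decarboxylase, was highest (29.3 ± 3.8). Sqle, the squalene epoxidase, and Lss, the lanosterol synthase, were near the low end (6.94 ± 0.10 and 4.28 ± 0.15). Values in the rest of the text are CPM that are not divided by length.

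The genotype comparison in Tcm with IL-15 held most of the differences. Against WT, 16 of the 30 tested members were lower in BBA and 0 were higher, where 11.8% of all 10098 tested genes were called lower and 11.9% higher (call: more than 1.5-fold, Benjamini-Hochberg adjusted p under 0.05 in the quasi-likelihood test of edgeR). The median log2 difference of BBA minus WT was -0.63 over the members and 0.02 over all genes, and 28 of 30 members were negative. By role, 2 of 4 regulators, 4 of 6 mevalonate genes, 6 of 11 sterol genes, 2 of 3 fatty acid synthesis genes and 2 of 6 desaturation and elongation genes were lower.

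In the mevalonate segment, Idi1, which isomerizes isopentenyl diphosphate, was at 89.2 and 68.6 CPM in WT, 60.5 and 63.8 in AAB and 22.5 and 19.5 in BBA. Fdps, which makes farnesyl diphosphate, was at 69.0 and 66.6 in WT, 48.6 and 52.8 in AAB and 26.3 and 23.4 in BBA. Acat2, the cytosolic thiolase that condenses acetyl-CoA at the head of the route, was at 27.3 and 23.2 in WT, 16.5 and 14.6 in AAB and 10.1 and 12.0 in BBA. The genotypes were ordered in the same way for all 3 genes, with no overlap between any of the groups. The genes were named for their large differences. How often groups separate in this way over all genes was not counted, here or in later comparisons. The log2 difference of BBA minus WT was -1.86 for Idi1 (SE 0.15, edgeR adjusted p = 0.000322), -1.39 for Fdps (SE 0.11, adjusted p = 0.00025) and -1.13 for Acat2 (SE 0.16, adjusted p = 0.00209). Mvd was also lower (-1.10), and Mvk and Pmvk, the mevalonate and phosphomevalonate kinases, were not called (-0.42 and -0.10). In the annotation used for positions, 26.71% of the exon bases of Fdps overlap the gene model Gm43738 on the same strand, so its count could be split.

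In the sterol segment, Sqle was at 38.1 and 38.9 CPM in WT, 23.9 and 31.8 in AAB and 13.7 and 12.0 in BBA. Cyp51, the lanosterol demethylase, was at 67.6 and 61.2 in WT, 49.7 and 45.9 in AAB and 24.1 and 20.2 in BBA. Hsd17b7, which reduces sterol ketones, was at 25.0 and 17.8 in WT, 15.5 and 16.2 in AAB and 8.17 and 8.83 in BBA. For these genes too every BBA library lay below every AAB library and every AAB library below every WT library. The log2 differences of BBA minus WT were -1.53 (SE 0.16, edgeR adjusted p = 0.000753), -1.48 (SE 0.13, adjusted p = 0.000373) and -1.27 (SE 0.20, adjusted p = 0.00285). Lss (-1.10), the C4-demethylating enzyme Msmo1 (-0.95) and the sterol desaturase Sc5d (-0.62) were also lower. The sterol genes not called were Fdft1, Tm7sf2, Nsdhl, Ebp and Dhcr7, with log2 differences of -0.57 to -0.18.

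Among the regulators, the genes for the SREBPs themselves were not called. Srebf1 was at 171 and 196 CPM in WT, 186 and 200.1 in AAB and 140.2 and 164 in BBA, and Srebf2 at 376 and 423 in WT, 347 and 408 in AAB and 314 and 386 in BBA. Their log2 differences of BBA minus WT were -0.21 (edgeR adjusted p = 0.164) and -0.13 (adjusted p = 0.445). Insig1, by contrast, was at 65.4 and 71.8 in WT, 61.3 and 65.5 in AAB and 43.9 and 40.6 in BBA, and was lower in BBA (-0.64, SE 0.10, adjusted p = 0.00275). Stard4, a cytosolic sterol transporter, was lower as well (-0.69, SE 0.17, adjusted p = 0.0161).

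In fatty acid synthesis, Fasn was at 518 and 559.6 CPM in WT, 281 and 382 in AAB and 178 and 196 in BBA. Acaca, the acetyl-CoA carboxylase that supplies it with malonyl-CoA, was at 105 and 92.4 in WT, 70.7 and 79.1 in AAB and 44.4 and 43.1 in BBA. No 2 genotypes overlapped for either gene, and the log2 differences of BBA minus WT were -1.47 (SE 0.15, edgeR adjusted p = 0.000649) and -1.12 (SE 0.10, adjusted p = 0.000521). Acly did not pass the fold threshold (-0.48). Fads1, a desaturase of polyunsaturated fatty acids (-0.96), and Scd2, a stearoyl-CoA desaturase (-0.89), were lower. Its paralog Scd1 and the elongase Elovl6 had the only positive values, 1.08 (SE 0.48, adjusted p = 0.115) and 0.49 (SE 0.11, adjusted p = 0.0108). Scd1 was at 16.2 and 33.8 in BBA and 7.90 and 16.8 in WT, and became a call with the replicate block (1.08, SE 0.13, adjusted p = 0.000415). With looser filters on low counts Fads2 could be tested as well and was called higher in BBA, by 2.35 with filterByExpr (SE 0.80, edgeR adjusted p = 0.0393) and 2.31 without a filter (SE 0.92, adjusted p = 0.0441). Its raw counts were 3 and 3 in WT and 7 and 18 in BBA, near the floor. A looser filter can be passed through the group with the higher counts, so these calls of Fads2 are not taken as a result. With filterByExpr Acly (-0.70), Ebp (-0.80), Elovl5 (-0.76), Fdft1 (-0.65), Mvk (-0.64) and Nsdhl (-0.68) were also called lower in BBA than in WT. Values of members called in both fits moved down with this filter too. Fasn went from -1.47 to -1.69 and Acaca from -1.12 to -1.34, so the added calls came with a shift of the values. Without 1 library at a time the count of members called in either direction was 13 to 20.

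**Figure D2:**
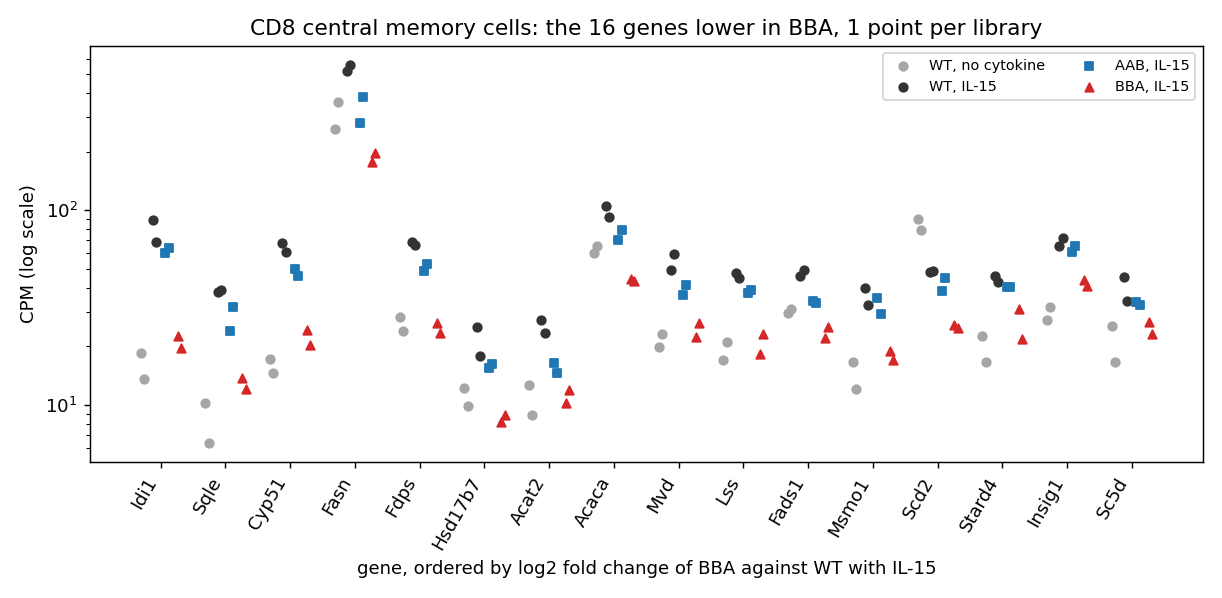
CPM (vertical axis, log scale) of the 16 members lower in BBA than in WT in Tcm with IL-15; each point is 1 library, coloured by genotype, with the WT libraries without cytokine in grey. For Idi1, the WT libraries are at 89.2 and 68.6, the AAB libraries at 60.5 and 63.8 and the BBA libraries at 22.5 and 19.5.

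AAB cells stood between WT and BBA. Against WT, 2 of 30 members were called, both lower, where 2.55% of all genes were called lower: Acat2 (-0.66, SE 0.15, edgeR adjusted p = 0.0489) and Fasn (-0.66, SE 0.14, adjusted p = 0.0418). The median over the members was -0.18, and 26 of 30 were negative. With 1 library left out at a time, 0 or 1 of the 30 members were called; the call of Acat2 was lost without either WT or either AAB library, and that of Fasn without either WT library or AAB replicate 1. BBA compared directly with AAB had 11 members lower and 0 higher, where 3.16% of all genes were called lower. They were Idi1 (-1.56), Sqle and Cyp51 (-1.10 each), Fdps (-1.02), Hsd17b7, Lss, Msmo1, Fasn, Acaca, Scd2 and Mvd (-0.67). Leaving out 1 library at a time left 3 to 7 called, with 3 without AAB replicate 2, 4 without BBA replicate 2 and 7 without AAB or BBA replicate 1. Idi1, Cyp51 and Fdps were called each time. The block added Stard4 (-0.62) and, as higher, Scd1 (1.19). The looser filter filterByExpr added Fads1 (-0.63), Insig1 (-0.70) and Stard4 (-0.73), all lower. The comparisons share their libraries of BBA and AAB with those against WT.

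**Figure D3:**
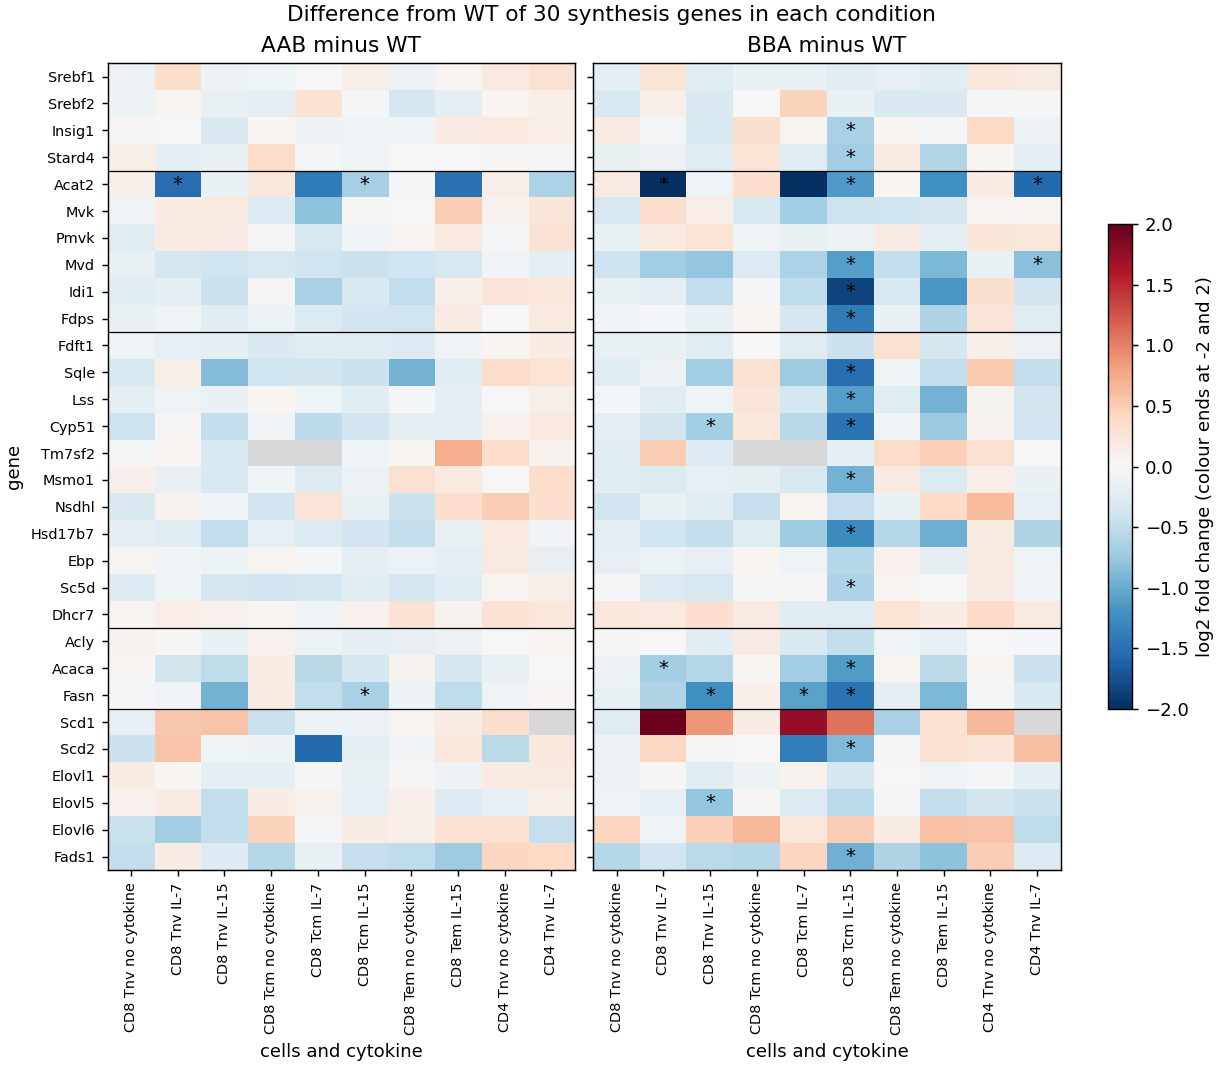
Log2 differences of AAB and of BBA from WT (colour, which ends at -2 and 2, grey where not tested) for 30 members (rows, by role) in each cell state and cytokine (columns); asterisks show calls at more than 1.5-fold and adjusted p under 0.05. Tcm with IL-15 holds 16 calls for BBA minus WT, and the columns without cytokine hold 0.

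Other genes of lipid metabolism were examined in the same comparison of BBA with WT. Of 25 listed genes of related synthesis steps, 21 were tested, with 4 lower (among them Acsl5 -0.99, Slc25a1 -0.77 and Hsd17b12 -0.69) and 1 higher (Acss2, a cytosolic acetyl-CoA synthetase, 0.99), and a median of -0.14. Of 11 genes of sterol efflux and esterification, many of them targets of the sterol sensor LXR, 9 were tested and 3 were higher: the cholesterol exporter Abca1 (1.59), the acyltransferase gene Soat2 (1.47) and Mylip (0.999). Of 16 genes of fatty acid oxidation, 15 were tested and 0 were called, with 11 negative and a median of -0.09.

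Proliferation genes and markers of other cells moved with the same groups. Of 8 proliferation genes, 6 were tested and 3 were lower in BBA than in WT, the replication genes Mcm5 (-1.98), Mcm2 (-1.78) and Pcna (-1.06), and the summed CPM of the 8 ranged from 807 to 931 in WT, 501 to 706 in AAB and 297 to 347 in BBA. Of 7 measured myeloid markers 3 were tested and all 3 were higher in BBA, and the sum of the 7 was 12.5 to 15.8 in WT, 16.1 to 31.9 in AAB and 36.2 to 62.0 in BBA. All 7 measured B-cell markers were tested and 0 called, with sums of 102 to 193 in WT and 218 to 452 in BBA. Il2rb, the receptor chain that IL-15 signals through, was lower in BBA (-1.28, SE 0.09, edgeR adjusted p = 0.000195). The part of cell division, other cells and receptor level in the difference of the synthesis genes was not tested, and in bulk libraries fewer expressing cells and less RNA per cell cannot be told apart.

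The response to IL-15 was then compared among genotypes, within Tcm. In WT, 13 of 30 members were higher with IL-15 than without cytokine and 0 lower, where 2.06% of 10350 genes were called higher. Sterol-pathway genes accounted for 11 of the 13: Idi1 (log2 difference 2.29, SE 0.32, edgeR adjusted p = 0.00459), Sqle (2.22), Cyp51 (2.01), Fdps (1.37), Mvd, Msmo1, Lss, Insig1, Stard4, Hsd17b7 and Dhcr7 (0.59), joined by Fasn (0.77) and Acaca (0.64). WT Idi1 rose from 18.5 and 13.5 CPM to 89.2 and 68.6, and Sqle from 10.2 and 6.37 to 38.1 and 38.9. In AAB, 8 were higher and 0 lower (0.435% of all genes higher), led by Sqle (2.21, SE 0.40, adjusted p = 0.0234), Idi1 (1.98) and Cyp51 (1.70), of which none was kept without any 1 of the AAB libraries except Fdps without IL-15 replicate 1. In BBA, 0 were higher, where 2.95% of all genes were, and 2 were lower, Scd2 (-1.65) and Fasn (-0.76), where 2.17% were; Fasn alone was called without replicate 1 of the BBA cells without cytokine, and neither without any other BBA library. BBA Idi1 was at 17.7 and 12.8 without cytokine and 22.5 and 19.5 with IL-15. Fasn moved in opposite directions in WT and BBA, from 261 and 361 to 518 and 559.6 in WT and from 276 and 377 to 178 and 196 in BBA.

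**Figure D4:**
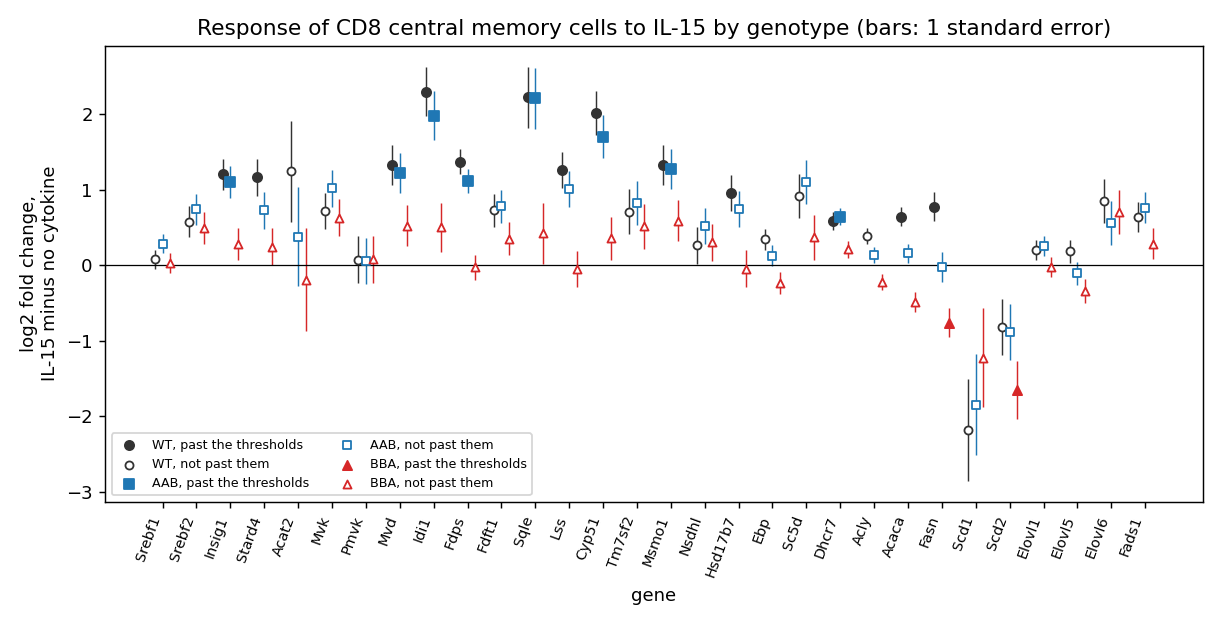
Log2 difference of IL-15 minus no cytokine in Tcm for each tested member, by genotype, with bars of 1 standard error from the fit (2 libraries per group) and filled marks for calls. Idi1 stands at 2.29 in WT and 1.98 in AAB, and 13 members were called higher in WT, 8 in AAB and 0 in BBA.

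The difference of the responses was tested itself, as an interaction. The IL-15 response was smaller in BBA than in WT for 7 members and larger for 0, where 3.09% of all genes were called smaller: Idi1 (-1.79, SE 0.45, edgeR adjusted p = 0.0422), Cyp51 (-1.66, SE 0.40, adjusted p = 0.0355), Fasn (-1.53, SE 0.28, adjusted p = 0.00946), Fdps (-1.40, SE 0.23, adjusted p = 0.0067), Lss (-1.30), Acaca (-1.13) and Acly (-0.60). Acaca, Fasn and Fdps were called again without each of the 8 libraries in turn, with 3 or 4 members called each time. For AAB against WT 0 members and 0 of 10350 genes were called by edgeR, although 616 genes reached an unadjusted p below 0.05. The WT response itself rested on both libraries of each group. It kept 1 member, Fdps, without replicate 2 of the cells without cytokine, 7 without replicate 1 of those cells, and 3 or 4 without replicate 1 or 2 with IL-15. With the 6 WT libraries fitted alone, 0 members were called.

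Whether the genotype difference with IL-15 was larger in Tcm than in Tnv was tested over all 12 libraries of both states with IL-15. Fdps was called (-1.25, SE 0.17, edgeR adjusted p = 0.0273), where 0.193% of all genes were, and 25 of 30 members were negative with a median of -0.41. The call was kept without Tnv WT replicate 1, where Idi1 joined it, or Tnv BBA replicate 2, and lost without any other of the 8 WT and BBA libraries. The other 29 were not shown to differ between the states.

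In Tnv with IL-15 3 members were lower in BBA than in WT and 0 higher, where 2.51% of all genes were called lower. Fasn was at 298 and 402 CPM in WT, 152 and 207 in AAB and 110.2 and 183 in BBA (-1.23, SE 0.27, edgeR adjusted p = 0.0327). Elovl5 was at 256 and 214 in WT and 145 and 123 in BBA (-0.77, SE 0.17, adjusted p = 0.0302), and Cyp51 at 39.8 and 32.3 and 20.6 and 23.0 (-0.68, SE 0.17, adjusted p = 0.049). WT and BBA did not overlap for any of the 3. The 6.92% of all genes called higher in this comparison included no member. With the replicate block Mvd was added (-0.79, adjusted p = 0.0325). Without WT replicate 2, the library with Cd4, Fasn was not called and Cyp51 (-0.84), Elovl5 (-0.91), Elovl6 (0.88) and Scd1 (3.05) were. Without WT replicate 1 or BBA replicate 2 Fasn alone was called (-1.43 and -1.60), and without BBA replicate 1 none was. AAB had 0 calls against WT where 0.893% of all genes did and 1409 genes reached an unadjusted p below 0.05, and with the block 1 member, Fasn, was called (-0.95, SE 0.11, adjusted p = 0.0141).

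The Tnv response to IL-15 was led by Scd2, which fell in every genotype (-1.71 in WT, -1.36 in AAB and -1.64 in BBA). In WT, Insig1 (0.71) and Sc5d (0.74) rose, 3 calls in all where 5.72% of all genes were called. Without replicate 2 of the WT cells without cytokine 1 member was called. In AAB there were 4 calls (14.7% of all genes), with Acaca (-0.70) and Fasn (-0.83) lower and Sc5d (0.68) higher. In BBA there were 3 calls, all lower, where 6.43% of all genes were, with Acaca (-0.66) and Fasn (-1.02) beside Scd2. The share of members called in either direction was below that of all genes in AAB and BBA and above it in WT, and in BBA the share called lower was above that of all genes.

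In Tem with IL-15 the numbers of the replicates paired the libraries, and the calls depended on whether the pairing was used. Without it 0 members were called for BBA minus WT, where 1.79% of all genes were and 1900 had an unadjusted p under 0.05. The median over the members was -0.32, with 24 of 30 negative. With the replicate block 10 members were lower and 0 higher. Shares of all genes are given for the reported fits only. Counts of members with the block or DESeq2, here and elsewhere, have no such share beside them. Idi1 was at 29.0 and 28.0 CPM in WT, 34.8 and 25.3 in AAB and 13.0 and 12.2 in BBA, and its blocked log2 difference of BBA minus WT was -1.17 (SE 0.18, edgeR adjusted p = 0.00317). Acat2 was at 37.4 and 30.6 in WT, 12.8 and 10.9 in AAB and 15.9 and 13.0 in BBA, and was lower in BBA (-1.22, SE 0.17, adjusted p = 0.00183) and in AAB (-1.498, SE 0.18, adjusted p = 0.00627) with the block. For Acat2 the AAB and BBA libraries both lay well below WT, whereas for Idi1 BBA lay below the others. The other blocked calls in BBA were Hsd17b7, Lss, Mvd, Fasn, Fads1, Cyp51, Fdps and Stard4, between -0.97 and -0.60. For AAB minus WT and BBA minus AAB 0 members were called without the block, where 0.019% and 0.00949% of all genes were and 775 and 746 had an unadjusted p under 0.05. Idi1 was lower in BBA than in AAB with it (-1.26, SE 0.18, adjusted p = 0.016). DESeq2 called 9 members for BBA minus WT.

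The Tem response to IL-15 also differed by gene. In WT, Acat2 rose from 13.2 and 10.97 to 37.4 and 30.6 CPM (1.49, SE 0.20, edgeR adjusted p = 0.00634) and Scd2 fell (-1.56), 2 calls where 1.59% of all genes were called. With the block there were 6, the additions being Sqle (0.74), Msmo1 (0.67), Sc5d (0.67) and Insig1 (0.63). Without WT replicate 2 of the cells without cytokine or WT replicate 1 with IL-15 the call of Acat2 was lost. In AAB, Sqle (1.45), Idi1 (1.11), Fdps (0.94) and Insig1 (0.87) rose and Scd2 fell (-1.29), 5 calls where 1.79% of all genes were called. Scd2 alone was left without either AAB library without cytokine, and the block gave 7 calls. In BBA, Acaca (-0.70), Fasn (-0.76) and Scd2 (-1.23) fell, 3 calls where 4.04% of all genes were called lower. Scd2 alone was left without replicate 2 of the BBA cells without cytokine, and the block gave 5 calls, with Elovl6 (0.78) and Sc5d (0.63) higher. For the interaction of BBA minus WT 0 members were called by edgeR, where 0.00922% of all genes were and 798 had an unadjusted p under 0.05, and with the block Acat2 was (-1.26, SE 0.21, adjusted p = 0.0426).

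With IL-7, Acat2 stood apart from the rest of the pathway. In Tnv it was at 13.5 and 9.62 CPM in WT without cytokine and at 113 and 109.5 with IL-7, and with IL-7 it was at 32.9 and 44.9 in AAB and 15.4 and 16.6 in BBA. The genotypes were fully separated, and BBA lay close to the level without cytokine. The log2 difference was -2.81 for BBA minus WT (SE 0.17, edgeR adjusted p = 0.00257) and -1.53 for AAB minus WT (SE 0.16, adjusted p = 0.0274), in comparisons where 2.69% and 0.257% of all genes were called. For BBA minus AAB, 0 members were called, where 0.148% of all genes were and 850 had an unadjusted p under 0.05, and with the block Acat2 was called (-1.27, SE 0.15, adjusted p = 0.0247). Acaca was the other member lower in BBA (-0.68, SE 0.12, adjusted p = 0.0385), with 93.0 and 89.5 in WT and 52.7 and 62.4 in BBA, and the block added Mvd (-0.71) and Fasn (-0.60). Leaving out any 1 of the WT or BBA libraries ended the call of Acaca and kept that of Acat2 in BBA. The Acat2 call in AAB was lost without either WT library. The neighbouring paralog Acat3 was lower in BBA as well (-0.71, adjusted p = 0.0394), and reads of near-identical stretches could be split between the paralogs.

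**Figure D5:**
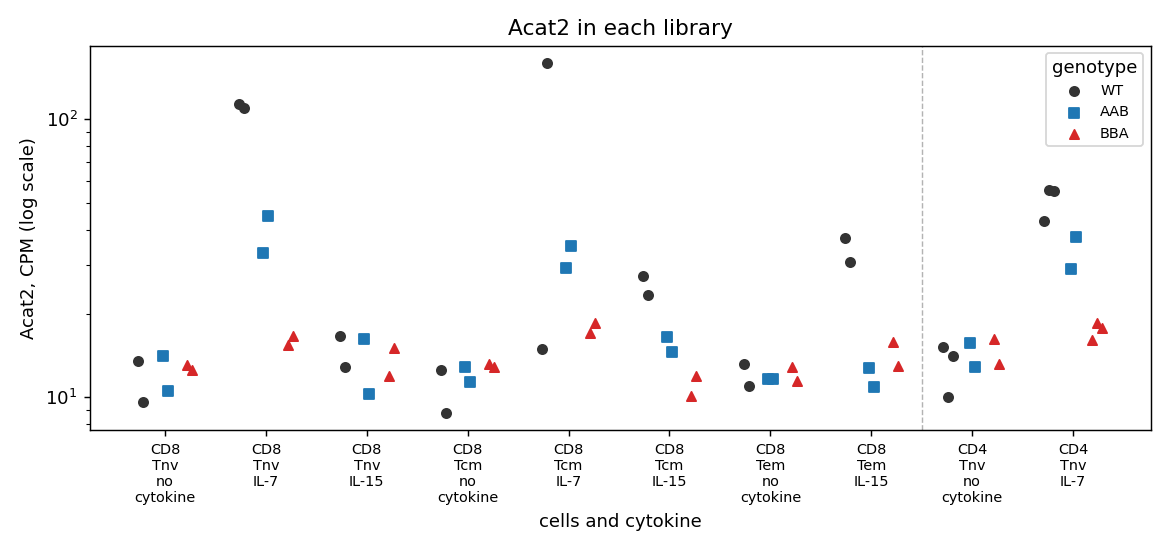
Acat2 in CPM (vertical axis, log scale) in every library of CD8+ and CD4+ T cells, by state, cytokine and genotype; each point is 1 library. With IL-7 the WT Tnv libraries reach 113 and 109.5 CPM in CD8+ cells and 43.1 to 55.6 in CD4+ cells, and the BBA libraries stay at or below 18.5 in both.

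By their sex-linked transcripts, all 6 CD8+ Tnv libraries with IL-7 were male, whereas the 6 without cytokine and the 6 with IL-15 were female. In CD8+ Tnv an effect of IL-7 and an effect of sex therefore cannot be told apart, which holds for the responses to IL-7 and for their differences between genotypes, while the genotype comparisons with IL-7 were made among males alone. The IL-7 response of Acat2 in Tnv was 3.29 in WT (SE 0.24, edgeR adjusted p = 1.57e-06) and 1.67 in AAB (SE 0.23, adjusted p = 0.000523), and 0.31 in BBA (SE 0.24, adjusted p = 0.399), which was not called. The response in BBA was smaller than in WT by -2.98 (SE 0.33, adjusted p = 0.000586), 1 member where 1.86% of all genes were called. Acat2 did not rise in this way with IL-15, where WT Tnv held 16.6 and 12.9 CPM, and the genotype difference between IL-15 and IL-7 was 2.72 (SE 0.34, adjusted p = 0.00224; 1 member, 2.14% of all genes). In all, 4 members rose and 3 fell with IL-7 in WT Tnv, where 18.7% of all genes were called. The others were Msmo1 (0.90), Idi1 (0.72) and Insig1 (0.66), and Scd1 (-4.71), Scd2 (-1.70) and Srebf1 (-0.71). Without IL-7 replicate 2 of WT 3 were called (Acat2, Scd2 and Srebf1). AAB had 6 higher and 1 lower (13% of all genes; 2 calls without replicate 2 of its cells without cytokine) and BBA 2 higher and 1 lower (10.1%; 0 without its IL-7 replicate 2). Markers of other cells also fell with IL-7. Of 7 tested B-cell markers, 7 were called lower in WT (median -4.31), 5 in AAB (-2.45) and 0 in BBA (-1.30). In WT, 2 of 4 tested myeloid markers and 3 of 5 T-cell markers were lower, and 0 were higher. The part of other cells in these responses was not tested.

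In Tcm with IL-7 the WT replicates differed from each other. Acat2 was at 14.98 CPM in WT replicate 1 and 159 in replicate 2, Cyp51 at 16.0 and 33.8, and Scd2 at 176 and 49.6. Fasn was alike in both, at 475 and 474, with 347 and 299 in AAB and 231 and 199 in BBA, and was the only member called for BBA minus WT (-1.07, SE 0.16, edgeR adjusted p = 0.0327), where 3.09% of all genes were called. This condition held 4 male and 2 female libraries by their sex-linked transcripts. With sex as a term 0 members were called, and without either BBA library also 0. Without WT replicate 1, 5 members were called, including Acat2 (-3.11), and without WT replicate 2 another 5, including Scd2 (-2.02), with Fasn in both (-1.09 and -1.05). AAB had 0 calls against WT where 0.0598% of all genes did and 1135 had an unadjusted p under 0.05. There the value of Acat2 was -2.28 without WT replicate 1 and 1.17 without WT replicate 2, calls of opposite direction.

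Both WT Tcm libraries with IL-7 were male, and AAB and BBA had 1 male and 1 female library each, whereas all 6 Tcm libraries without cytokine were female. In WT Tcm, cytokine and sex cannot be told apart. The WT Tcm response to IL-7 had 3 calls, Acat2 (3.04), Elovl6 (1.40) and Scd1 (-3.49), where 3.18% of all genes were called. It had 12 calls without IL-7 replicate 1, 1 without IL-7 replicate 2 or replicate 1 of the cells without cytokine, and 0 without replicate 2 of those cells. In AAB Scd1 was called (-3.18; 4.32% of all genes), and only without replicate 1 of the cells without cytokine was the call kept. In BBA Fads1 was called (0.77; 5.88%), and was lost without any 1 of the BBA libraries. Of 7 tested B-cell markers, 6 were called lower with IL-7 in WT Tcm (median -3.10), and 0 in AAB (-2.12) or BBA (-0.39). The part of other cells in these responses was not tested.

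Without cytokine no member was called against WT in Tnv, Tcm, Tem or CD4+ Tnv in edgeR's test. The shares of all genes called for BBA minus WT were 2.78%, 0.287%, 0.207% and 1.13% in that order, with 2195, 935, 1096 and 1031 genes at an unadjusted p below 0.05. For AAB minus WT the shares were 0.166%, 0.0411%, 0.0197% and 0.373%, with 749, 373, 815 and 841 genes. Elovl6 was higher in BBA than in AAB in Tnv, at 39.1 and 33.5 against 19.02 and 20.2 CPM (0.89, SE 0.12, edgeR adjusted p = 0.0323; 1 member, 0.551% of all genes), a call lost without any 1 of those 4 libraries. The blocked fit called Fads1 lower in BBA than in WT in Tem (-0.60, adjusted p = 0.0345) and Scd2 higher in BBA than in AAB in CD4+ Tnv (0.78, adjusted p = 0.0484).

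Between WT cell states without cytokine 0 members were called for Tcm minus Tnv, Tem minus Tcm or Tem minus Tnv, where 2.71%, 1.9% and 7.91% of all genes were and 1392, 1296 and 1936 had an unadjusted p under 0.05. The replicate numbers paired these libraries. With the block, Sqle (-1.10, SE 0.18, edgeR adjusted p = 0.00104) and Cyp51 (-0.71, SE 0.13, adjusted p = 0.00203) were lower and Scd1 (1.19, SE 0.16, adjusted p = 0.000161) higher in Tcm than in Tnv, and Scd1 was lower in Tem than in Tcm (-1.62, SE 0.16, adjusted p = 1.62e-05). Sqle was at 17.1 and 17.0 CPM in Tnv and 10.2 and 6.37 in Tcm, and Scd1 at 11.3 and 40.9 in Tnv. Scd1 in Tcm was at 37.1 and 72.7, against 10.3 and 26.1 in Tem. The ranges of Scd1 in Tnv and Tcm overlapped, and the order held within each replicate number.

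In CD4+ Tnv the libraries were male both without cytokine (7 of 7) and with IL-7 (8 of 8), unlike those of CD8+ Tnv, and the lineages were not compared. In WT, 12 of 30 members rose and 2 fell, where 16.3% of all genes were called. Acat2 went from 10.02, 14.1 and 15.1 CPM to 43.1, 55.0 and 55.6 (1.97, SE 0.16, edgeR adjusted p = 1.61e-06), and Idi1 from 18.6, 25.0 and 32.1 to 59.0, 64.8 and 70.6 (1.37, SE 0.20, adjusted p = 0.000189). Elovl6 (1.73), Sqle (1.27), Mvd (1.12), Insig1 (1.10), Msmo1 (1.04), Stard4, Sc5d, Fdft1, Cyp51 and Fdps (0.73) also rose, and Scd2 (-1.92) and Scd1 (-2.07) fell. The libraries with and without IL-7 did not overlap for Acat2 or Idi1. AAB had 12 higher and 1 lower (13.1% of all genes) and BBA 6 higher and 1 lower (13.6%; 3 calls without replicate 2 of the cells without cytokine). The BBA response was smaller than that of WT for Acat2 (-1.71, SE 0.24, adjusted p = 0.00243), the only member called, where 1.11% of all genes were.

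Between genotypes with IL-7, 2 members were lower in BBA than in WT CD4+ Tnv, where 2.66% of all genes were called lower. Acat2 was at 43.1, 55.6 and 55.0 CPM in WT, 28.9 and 37.7 in AAB and 16.1, 18.5 and 17.8 in BBA, with no overlap between genotypes. Its log2 difference was -1.56 for BBA minus WT (SE 0.13, edgeR adjusted p = 0.000163) and -0.93 for BBA minus AAB (SE 0.15, adjusted p = 0.0152; 1 member, 1.57% of all genes). Mvd was at 40.5, 45.9 and 45.2 in WT and 17.9, 31.2 and 24.5 in BBA (-0.84, SE 0.17, adjusted p = 0.0163), and was lost without WT replicate 2 or BBA replicate 3. Without BBA replicate 2 there were 4 calls, and the block added Hsd17b7 (-0.59, adjusted p = 0.0397). The call of Acat2 for BBA minus AAB was lost without BBA replicate 1 or AAB replicate 3, and the block added Sqle there (-0.61, adjusted p = 0.0195). AAB had 0 calls against WT where 0.627% of all genes did and 1059 had an unadjusted p under 0.05, and with the block Acat2 was called (-0.71, SE 0.12, adjusted p = 0.0288).

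In the retrovirus libraries 2 of 29 tested members were lower with CA-STAT5A than with the control vector and 0 were higher, where 4.48% of all genes were called lower. By their sex-linked transcripts each vector had 1 male and 1 female library, and the fit did not use the sex. Scd1 was at 34.9 and 25.97 CPM with the control vector and 3.16 and 5.52 with CA-STAT5A (-2.84, SE 0.30, edgeR adjusted p = 0.00581). Elovl5 was at 203 and 191 with the control vector and 109 and 127 with CA-STAT5A (-0.74, SE 0.12, adjusted p = 0.0168). The vectors did not overlap for either gene. Srebf1 was at 119 and 144 with the control vector and 129 and 125 with CA-STAT5A, Srebf2 at 147 and 146 and 101 and 117, and Insig1 at 19.2 and 20.7 and 19.5 and 23.1. Of 20 tested sterol-pathway members 0 were called. Of the 7 B-cell markers tested 6 were lower with CA-STAT5A, and their sum was 10.5 to 28.9 CPM against 103 to 167. Of the 7 myeloid markers 3 were lower (Lyz2, Cd68 and Csf1r) and Itgam was higher, with sums of 2051 to 2199 against 1351 to 1443. Of 5 tested T-cell markers 2 were lower and 1 was higher, and of 4 tested NK-cell markers 2 were higher and 0 lower. The part of cell composition in the difference of Scd1 and Elovl5 was not tested. Without CA-STAT5A replicate 1 only Scd1 was called (-2.46).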

How the data were processed

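RNA-seq was of poly(A)+ RNA, sequenced as single-end 50 bp reads. The authors deposited whole-number counts of reads per gene symbol, made with TopHat2, Cufflinks and HTSeq, without normalization. The study's methods name mm10 and the submitters' processing notes name mm9. Strand and annotation are not given in the sources used here. In the retrovirus table, rows that name no gene held 67.0% to 68.4% of each column and were left out of library sizes and tests. Of 69 samples, 2 CD4+ samples whose labels contradict each other on the cytokine were not used.

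Counts were fitted with edgeR 4.0.16 in R 4.3.3 (TMM, quasi-likelihood test), 1 fit per condition for genotypes and 1 fit over all libraries of a cell state for cytokine responses and interactions. Genes were kept when above a threshold in at least 1 library, chosen per fit by the Jaccard index between replicates (31.2 to 121.6 normalized counts, 9248 to 10841 genes). Positions and lengths are from GENCODE M21, promoters from RefSeq. The members and lists were chosen with earlier results of these data known, and the text names members called with the largest differences (up to 8 per comparison), Srebf1, Srebf2 and Insig1, up to 4 called genes of each other list, and members that an alternative adds or loses. The statistics were tested on simulated data: of 200 genes changed by a log2 difference of 1, 98% were recovered for BBA minus WT in Tcm with IL-15 and 70% in Tnv. Beside these, 17 genes left unchanged were called in Tcm and 14 in Tnv. The changed genes were drawn only from those above a set level, and members such as Pmvk and Tm7sf2 lay below it. The study states 2 or 3 mice per group, but the labels do not tie libraries to animals, so p-values measure the spread between these libraries. Same-numbered libraries deviated together (every correlation over 0.1) in each genotype fit except Tcm with IL-7, in the Tem cytokine fit and in the fit of WT states, which was taken as pairing, with correlations of 0.107 to 0.800. No 2 replicates agreed within sampling noise. Tables were normalized separately, and tests stayed within a table.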

Additional observations from a re-analysis of the deposited data

Results flagged for a closer look

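The responses to a cytokine differed between BBA and WT, by the test of the difference itself in edgeR, for the members given here, each as BBA minus WT on the log2 scale. In CD8+ Tnv, the response of Acat2 to IL-7 differed by -2.98, and its difference between IL-15 and IL-7 by 2.72. The CD8+ Tnv libraries with IL-7 were male and the others female, so cytokine and sex cannot be told apart there. In CD8+ Tcm, the response to IL-15 differed by -1.79 for Idi1, -1.66 for Cyp51, -1.53 for Fasn, -1.40 for Fdps, -1.30 for Lss, -1.13 for Acaca and -0.60 for Acly. In CD4+ Tnv, the response of Acat2 to IL-7 differed by -1.71. The genotype difference of Fdps with IL-15 in Tcm differed from that in Tnv by -1.25. Groups held 2 or 3 libraries, so single libraries were not tested as outliers.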

How the results depend on the processing

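No result called in the reported fits changed direction. Over the alternatives, 1292 values of single members stayed on their side of the threshold and 310 no longer passed it. Counts of members called are given as set against the reported count. The share of all genes called under each alternative is not given, so these counts cannot be set against the rest of the genes. Without a filter on low counts they were 2 (reported 1) and 5 (2) for AAB and BBA against WT in Tnv under IL-7, 2 (0) and 10 (3) for Tnv under IL-15, 2 (0) and 6 (1) for Tcm under IL-7, 25 (16) for BBA and 17 (11) for BBA minus AAB for Tcm under IL-15, 1 (0) and 3 (0) for Tem under IL-15, 1 (0) and 4 (2) in CD4+ with IL-7, 3 (0) for Tcm minus Tnv and 1 (0) for Tem minus Tcm; this setting moved the median of all genes to 0.46 for BBA minus WT for Tcm under IL-15. With filterByExpr they were 8 (3) for BBA for Tnv under IL-15, 2 (1) for Tcm under IL-7 and 4 (2) in CD4+ with IL-7. For Tcm under IL-15 this filter also added the members named above, for BBA minus WT and for BBA minus AAB. It moved Idi1 in BBA minus WT there to -2.08. DESeq2 gave 4 (2) for BBA for Tnv under IL-7, 1 (0) for AAB for Tnv under IL-15, 3 (1) for BBA for Tcm under IL-7, 2 (0) and 9 (0) for AAB and BBA for Tem under IL-15, 1 (0) and 4 (2) in CD4+ with IL-7, 5 (3) for the WT Tcm response to IL-7, 4 (2) for the WT Tem response and 2 (0) for Tcm minus Tnv. The replicate block gave 4 (2) for BBA for Tnv under IL-7, 1 (0) for AAB for Tnv under IL-15, 1 (0) and 10 (0) for Tem under IL-15, 6 (2) for the WT Tem response, 1 (0) for AAB in CD4+ with IL-7, 3 (0) for Tcm minus Tnv and 1 (0) for Tem minus Tcm, and, where the numbers did not pair, 14 (13) for the WT Tcm response to IL-15. A fit over the lineage gave 0 (1) for AAB for Tnv under IL-7, 1 (0) and 5 (3) for Tnv under IL-15, 2 (0) and 7 (1) for Tcm under IL-7, 0 (2) for AAB for Tcm under IL-15 and 8 (0) for BBA for Tem under IL-15. WT libraries alone gave 5 (3) for the Tnv response to IL-15, 0 (3) for the Tcm response to IL-7 and 0 (13) for that to IL-15. Sex as a term, chosen after seeing the data, gave 0 (1) for BBA for Tcm under IL-7.

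With each library left out in turn the counts ran from 0 to 2 for AAB and 1 to 1 for BBA for Tnv under IL-7, 0 to 4 for BBA for Tnv under IL-15, 0 to 3 and 0 to 5 for Tcm under IL-7, 0 to 1 and 13 to 20 for Tcm under IL-15, 3 to 7 for BBA minus AAB there, 3 to 7 and 1 to 2 for the WT Tnv responses to IL-7 and IL-15, 0 to 12 and 1 to 7 for those of Tcm, 3 to 4 for the Tcm interaction, 1 to 2 for the WT Tem response, 1 to 4 for BBA in CD4+ with IL-7, 0 to 1 for Tcm minus Tnv and 1 to 3 for the retrovirus. Where an arm was left with 1 library, it was assumed to vary like the others. The cause of these shifts was not tested. With 2 libraries per group, small differences were not detectable.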

Other observations

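The level of Scd1 followed the replicate number. In 18 of the 18 CD8+ groups without cytokine or with IL-15, Scd1 was higher in replicate 2 than in replicate 1, by 1.14- to 8.04-fold with a median of 2.25-fold. In the 6 groups with IL-7 it was lower in replicate 2 each time, with replicate 1 at 1.29 to 4.05 times replicate 2. Some of these groups were near the floor, with 1.10 and 0.85 CPM in WT Tnv and 2.15 and 0.56 in AAB Tnv. The BBA Tcm libraries with IL-7 held 22.2 and 10.2. In Tcm without cytokine, for example, Scd1 was at 37.1 and 72.7 CPM in WT, 21.3 and 59.1 in AAB and 49.8 and 70.7 in BBA. This pattern was noticed in the data and was not tested, and the labels do not say what the replicate number marks.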
